A study of Mus musculus with 4 samples.

Results

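The killer cell lectin-like receptors and their Clec2 ligands form a family of C-type lectin-like membrane proteins, best known from natural killer (NK) cells. The 8 genes described here were taken by symbol: the receptor genes Klrc1, Klrc2, Klrd1, Klrg1, Klrk1 and Klrb1c and the ligand genes Clec2d and Clec2i. Of these 8 genes among the 18193 genes measured, 7 had a probe set assigned to them alone, with 9 such probe sets in all. Klrb1c had none of its own, since its probe set is shared with Klrb1b. The genes were chosen by their measured signals across these same 4 arrays, so their values are a description and carry no test.

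The arrays hold RNA of CD4 T cells of C57BL/6 mice aged 8 to 10 weeks, from spleen and lymph nodes, cultured and then sorted on IL-17, read through GFP, and on Foxp3, read in the APC channel. The exFoxp3Th17 cells came from Foxp3+ CD4 T cells cultured in Th17 conditions and were IL-17+ Foxp3-. The Th17 cells came from naive CD4 T cells in the same conditions and passed the same gate. The Treg cells came from Foxp3+ CD4 T cells cultured with IL-2 and were IL-17- Foxp3+, and the Th0 cells came from naive CD4 T cells in Th0 conditions and were negative for both. Each population was measured on 1 Affymetrix array, so there is no spread between samples, and every difference is one between 2 single cultures. The exFoxp3Th17 and Th17 populations shared conditions and gate. They differed in origin and also in sex-linked transcripts, given below, while the other 3 comparisons crossed differences in gate and culture. The labels give neither the cytokines of the cultures nor the number of mice behind each array.

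CD94, encoded by Klrd1, pairs with an NKG2 chain to form a receptor for Qa-1, a non-classical MHC class I molecule that displays leader peptides of other class I proteins. The chain NKG2A, from Klrc1, carries inhibitory motifs that recruit phosphatases, whereas NKG2C, from Klrc2, lacks them and signals through the adaptor DAP12. NKG2D, from Klrk1, recognises stress-induced class I relatives without CD94. The Clec2 proteins are ligands of the NKR-P1 receptors, which the Klrb1 genes encode, and genes of both kinds are interspersed on mouse chromosome 6 in the NK gene complex.

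The start regions of 4 members are printed because these genes moved in opposite ways between the arrays: Klrc1 and Klrk1 were highest in Th17 cells, where Clec2d and Clec2i were lowest. Klrd1 was also highest in Th17 cells, but no start region was available for it. Each runs from 250 bases before to 50 bases after the annotated start (RefSeq, GRCm38.p6), with matches to any of 4 motifs in capitals. The motifs, chosen with these results known, were those of AP-1 (TGANTCA), STAT factors (TTCNNNGAA), ROR factors (AGGTCA) and Maf (TGCTGA), on both strands.
Klrc1, chr6:129678924-129679223, minus strand: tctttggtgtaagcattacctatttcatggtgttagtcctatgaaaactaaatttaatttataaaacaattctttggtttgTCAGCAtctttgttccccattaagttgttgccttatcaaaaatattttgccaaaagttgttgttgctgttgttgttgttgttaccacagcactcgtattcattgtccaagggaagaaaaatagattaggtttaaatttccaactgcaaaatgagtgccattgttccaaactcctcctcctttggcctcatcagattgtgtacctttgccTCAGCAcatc
Klrk1, chr6:129623815-129624114, minus strand: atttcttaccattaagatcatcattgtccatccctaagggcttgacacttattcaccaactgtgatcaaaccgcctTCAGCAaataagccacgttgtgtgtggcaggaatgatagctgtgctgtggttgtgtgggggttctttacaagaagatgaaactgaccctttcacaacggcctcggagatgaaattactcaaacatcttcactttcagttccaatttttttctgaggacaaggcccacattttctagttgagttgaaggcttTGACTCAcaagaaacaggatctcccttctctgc
Clec2d, chr6:129180365-129180664, plus strand: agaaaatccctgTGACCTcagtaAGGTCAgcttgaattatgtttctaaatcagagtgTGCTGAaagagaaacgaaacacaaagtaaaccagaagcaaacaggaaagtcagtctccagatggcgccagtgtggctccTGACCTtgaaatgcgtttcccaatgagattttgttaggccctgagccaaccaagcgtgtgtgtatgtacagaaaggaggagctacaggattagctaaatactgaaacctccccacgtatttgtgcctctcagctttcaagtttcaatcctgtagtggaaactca
Clec2i, chr6:128887337-128887636, plus strand: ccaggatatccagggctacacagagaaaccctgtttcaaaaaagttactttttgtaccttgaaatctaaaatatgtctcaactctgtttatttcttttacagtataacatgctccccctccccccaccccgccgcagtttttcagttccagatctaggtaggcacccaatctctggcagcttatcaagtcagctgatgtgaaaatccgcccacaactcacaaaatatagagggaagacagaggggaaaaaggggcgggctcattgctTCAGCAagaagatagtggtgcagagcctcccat

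The Maf letters stood in all 4 of these windows, at -169 and 40 from the start in Klrc1, at -174 in Klrk1, at -193 in Clec2d and at 17 in Clec2i, so they were found in genes of both directions. Clec2i has another annotated start, not printed, from which the same match lies at 14. The ROR letters were found only in Clec2d among the 4, at -238, -227 and -114, and the AP-1 letters only in Klrk1, at 17. No window of the 4 held the STAT letters, and no matches overlapped. Of all 32851 windows, 19.5% held the Maf letters, 16.3% the ROR letters, 7.81% the AP-1 letters and 8.3% the STAT letters. A match describes the sequence and is not a binding site.

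Signals are MAS5 intensities on a linear scale. The floor, 12.1, is the median signal of all probe sets, and values below it count as the floor in every ratio, so a fold against such a value is a lower bound. A gene was called higher or lower at 2-fold or more with the brighter array above the floor. Levels of different genes are not compared, because probe sets differ in brightness.

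Foxp3 had a signal of 584.9 in Treg cells and was under the floor on the arrays sorted as Foxp3- (8.0 in exFoxp3Th17, 6.2 in Th17, 4.3 in Th0). No array had Il17a above the floor (9.4, 9.8, 8.2 and 7.1 in exFoxp3Th17, Th17, Treg and Th0), so the array does not show the IL-17 gate. The exFoxp3Th17 array also stood apart in sex-linked transcripts: Xist was at 3766 there and between 7.4 and 10.8 on the other arrays, and Eif2s3y at 4.7 there and between 654.5 and 875.8 on the others. This difference cannot be told apart from origin or culture in any comparison with exFoxp3Th17. All 8 measured CD4 T cell markers were above the floor on every array. None of them was called between exFoxp3Th17 and Th17 or between Th17 and Th0, and Cd4 itself read 98.1 in exFoxp3Th17, 81.2 in Th17, 48.3 in Treg and 109.6 in Th0. In exFoxp3Th17 against Treg, Cd4 was 2.03-fold higher and Thy1 2.65-fold lower (1056 against 2798), and in Treg against Th0 Cd4 was 2.27-fold lower. As a scale for noise within arrays, log2 ratios were compared within genes that have 2 bright enough probe sets, and the pair was apart by a robust SD of between 0.42 and 0.52, depending on the comparison.

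The inhibitory chain gene Klrc1 was the most uneven member. Its brighter probe set read 23.2 in exFoxp3Th17, 1200.0 in Th17, 7.0 in Treg and 3.2 in Th0 cells. Th17 cells stood far above the other 3 arrays, of which only exFoxp3Th17 was above the floor. The second probe set had the same order at the top, with 6.0 in exFoxp3Th17, 145.2 in Th17, 0.5 in Treg and 1.0 in Th0, and was above the floor only in Th17. Klrc1 was 51.6-fold lower in exFoxp3Th17 than in Th17 (at least 12.0-fold by the second probe set). It was at least 99.2-fold higher in Th17 than in Th0 (at least 12.0-fold). Both ratios share the Th17 array. These were the 4th largest of 863 lower ratios and the 6th largest of 979 higher ratios. Between exFoxp3Th17 and Treg it was not called, at no less than 1.92-fold, just short of the threshold, with Treg below the floor. In bulk RNA, fewer cells with a transcript and less of it per cell cannot be told apart, so the level in Th17 cells does not give the number of positive cells.

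Klrd1, the CD94 partner of NKG2A, was above the floor everywhere. Its only probe set read 504.3 in exFoxp3Th17, 1801 in Th17, 32.1 in Treg and 256.1 in Th0 cells. Both Th17-cultured populations were above both others, and Treg was by far the lowest. Klrd1 was 3.57-fold lower in exFoxp3Th17 than in Th17 and 15.7-fold higher in exFoxp3Th17 than in Treg. It was 7.03-fold higher in Th17 and 7.97-fold lower in Treg, each against Th0. Between exFoxp3Th17 and Th0, next to each other in the order of levels, the difference was 1.97-fold and below the threshold. Klrd1 and Klrc1 therefore shared their highest array and differed elsewhere: Th0 cells had Klrd1 at 256.1 and Klrc1 below the floor.

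The activating chain gene Klrc2 was not detected. Its own probe set read 1.4 in exFoxp3Th17, 2.0 in Th17, 1.0 in Treg and 0.6 in Th0, and the probe set that it shares with Klrc3 read 6.2, 9.9, 0.1 and 0.8 in the same order. Both were below the floor on all 4 arrays, so no ratio is given. Klrc1, Klrc2 and Klrc3 are close paralogs, and binding of one transcript to another's probes was not tested. The 1200.0 of Klrc1 in Th17 stood beside signals below the floor in the Klrc2 probe sets.

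Klrk1, the NKG2D gene, was dim. It read 2.4 in exFoxp3Th17, 32.2 in Th17, 14.1 in Treg and 2.0 in Th0 cells. Th17 was highest, Treg just above the floor and the other 2 arrays below it. It was at least 2.66-fold lower in exFoxp3Th17 than in Th17 and at least 2.66-fold higher in Th17 than in Th0. Both calls are lost when the floor is doubled, to a log2 ratio of -0.41 and 0.41.

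Along chromosome 6, Klre1, Klrd1, Klrk1, Klrc3, Klrc2 and Klrc1 follow one another without another protein-coding gene between them in the RefSeq annotation. This run of 6 genes was chosen after the values were seen. All 6 were measured, and each of the 4 above the floor on an array (Klre1, Klrd1, Klrk1, Klrc1) was highest in Th17 cells. Klrd1, Klrk1 and Klrc1 are members, themselves chosen by these signals. The share of all genes highest in Th17 was not computed, so nothing is read from this count. Klre1, an NK receptor gene that is no member of the set, read 5.6 in exFoxp3Th17, 167.4 in Th17, 0.9 in Treg and 0.5 in Th0. It was at least 13.8-fold lower in exFoxp3Th17 than in Th17 and at least 13.8-fold higher in Th17 than in Th0.

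**Figure D1:**
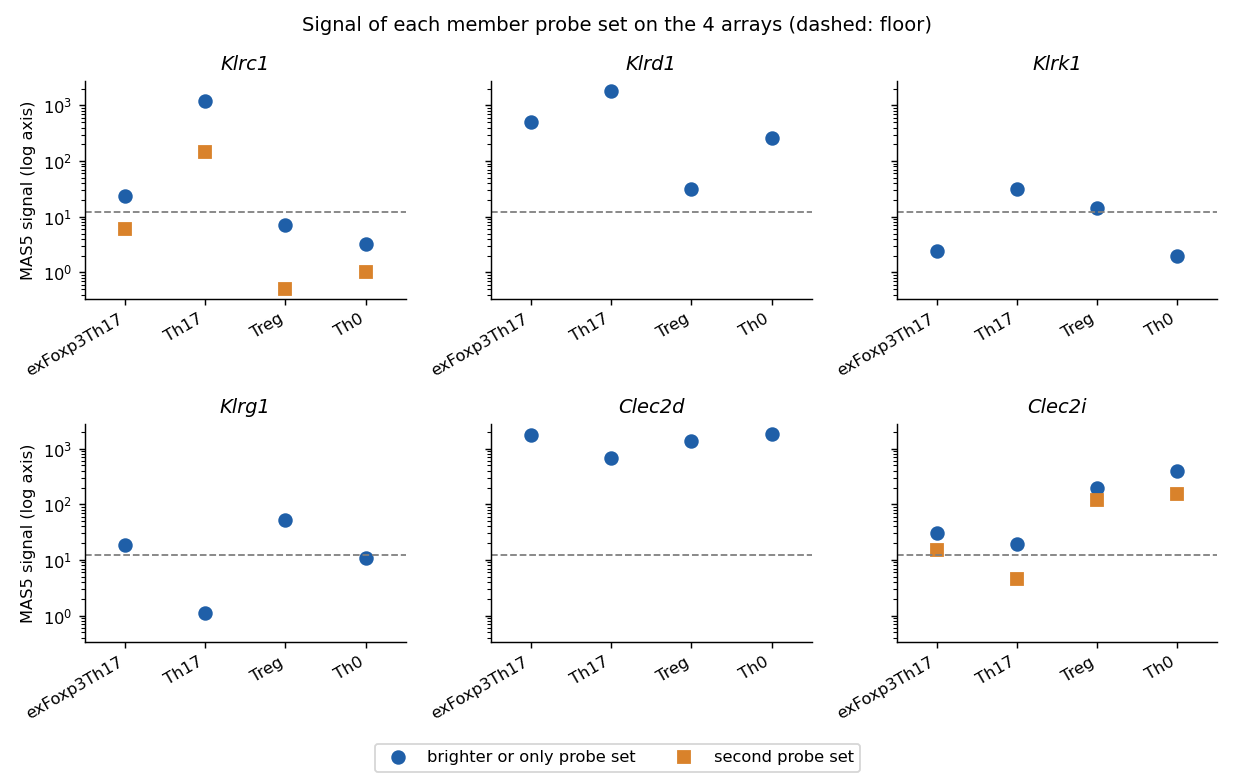
MAS5 signal (log axis) of each probe set of the 6 members above the floor on at least 1 array, by array, with exFoxp3Th17, Th17, Treg and Th0 from left to right; circles are the brighter or only probe set, squares the second one, and the dashed line is the floor of 12.1. Klrc1, Klrd1 and Klrk1 are highest in Th17 (1200.0, 1801 and 32.2), Klrg1 in Treg (51.4), and Clec2d and Clec2i are lowest in Th17 (671.5 and 19.3).

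Klrg1, an inhibitory receptor for cadherins that is found on antigen-experienced T cells and on a subset of regulatory T cells, was highest in Treg. It read 18.2 in exFoxp3Th17, 1.1 in Th17, 51.4 in Treg and 10.7 in Th0. Both populations from Foxp3+ cells were above the floor, and both from naive cells were below it. That split depends on the floor, since exFoxp3Th17 and Th0 lay close to it on either side. When the floor was doubled, only Treg stayed above it, and the log2 ratio of exFoxp3Th17 over Th17 was 0.0. Klrg1 was 2.83-fold lower in exFoxp3Th17 than in Treg and at least 4.25-fold higher in Treg than in Th0. Between exFoxp3Th17 and Th17 it was not called, at no less than 1.50-fold with Th17 below the floor.

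The summed signal of NK cell markers was also highest on the Treg array, mostly through Nkg7 and Gzma. Of 11 measured NK cell markers, 2 were above the floor in exFoxp3Th17, 1 in Th17, 6 in Treg and 3 in Th0, and their summed signals were 72.6, 69.3, 428.2 and 100.7. In Treg against Th0, 3 were higher: Nkg7, a granule membrane protein gene (193.9 against 5.2, at least 16.0-fold), Gzma, which encodes granzyme A (109.0 against 9.7, at least 9.01-fold), and the perforin gene Prf1 (56.0 against 12.0, at least 4.63-fold). Eomes was above the floor in Treg only and not called, at 8.7 in exFoxp3Th17, 2.0 in Th17, 21.5 in Treg and 1.1 in Th0. Some others were not highest in Treg: Fcgr3 read 4.3 in exFoxp3Th17, 5.9 in Th17, 0.7 in Treg and 21.9 in Th0. Cd160 read 22.8, 10.0, 15.4 and 17.6 in the same order. Itga2 read 8.7, 7.1, 15.5 and 15.6, about level between Treg and Th0. The other Prf1 probe set ran the opposite way, at 4.7 in Treg and 20.1 in Th0. Nkg7, Gzma and Prf1 were also lower in exFoxp3Th17 than in Treg, and Prf1 was called higher in Th17 (24.5) than in Th0 (12.0). The defining NK receptor gene Ncr1 was below the floor on all 4 arrays, as were Cd244a, Styk1 and Klra8. The part of any NK cells in the Klrg1 signal was not tested, nor was it for Klrd1, which NK cells also express.

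Most B cell and myeloid markers were below the floor on all arrays. Most measured markers of CD8 T cells and of NKT and gamma delta T cells were above it on some array. CD8 T cell markers summed to 77.8 in exFoxp3Th17, 97.9 in Th17, 70.0 in Treg and 76.9 in Th0, with 2 of 3 above the floor on some array. Cd8b1 was above the floor on all 4, at 64.9, 83.5, 51.7 and 64.6, and Cd8a lay between 11.1 and 14.3. Markers of NKT and gamma delta T cells (3 measured) summed to 20.4, 20.6, 37.7 and 14.0. Zbtb16 (13.3) and Sox13 (16.4) were above the floor in Treg, and Sox13 also in exFoxp3Th17 (12.4). Trdc, Trgc1, Trgc2 and Trdv4 had no probe set of their own. B cell markers (5 measured) summed to 33.7, 22.3, 71.5 and 28.7, and 4 of the 5, Cd79a among them, were below the floor on all arrays. Myeloid markers (8 measured) summed to 42.1, 52.3, 60.1 and 94.9, with Lyz2, Cd14, S100a8, S100a9 and Itgam below the floor on all arrays and Csf1r above it on all 4 (12.6, 17.5, 16.8 and 23.4). In Treg against Th0 a B cell marker, Cd79b, was higher (55.6 against 9.6), and it was lower in exFoxp3Th17 (19.3) than in Treg. A myeloid one, Adgre1, was lower in Th17 (10.2) and in Treg (12.8) than in Th0 (32.2).

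Clec2d encodes Clr-b, a widely expressed ligand that inhibits NK cells through NKR-P1B. Its probe set read 1773 in exFoxp3Th17, 671.5 in Th17, 1394 in Treg and 1820 in Th0. The Th17 array alone stood low, and the other 3 lay within 1.31-fold of one another. Clec2d was 2.64-fold higher in exFoxp3Th17 than in Th17 and 2.71-fold lower in Th17 than in Th0. It was not called between exFoxp3Th17 and Treg (1.27-fold) or between Treg and Th0 (1.31-fold). Its next coding neighbour, Cd69, an early activation antigen of the same lectin family, ran the opposite way, at 131.0 in exFoxp3Th17, 737.7 in Th17, 317.3 in Treg and 323.7 in Th0. Cd69 was 5.63-fold lower in exFoxp3Th17 than in Th17 and 2.28-fold higher in Th17 than in Th0.

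Clec2i encodes Clr-g, a ligand of the receptor NKR-P1F. Its brighter probe set read 30.9 in exFoxp3Th17, 19.3 in Th17, 192.2 in Treg and 396.1 in Th0, and its second one 15.0, 4.5, 117.1 and 154.1. Both Th17-cultured populations were low and both others were high by either probe set. Clec2i was 6.21-fold lower in exFoxp3Th17 than in Treg (7.78-fold by the second probe set) and 20.5-fold lower in Th17 than in Th0 (at least 12.7-fold). The ratio of Th17 to Th0 was the 8th largest of 815 lower ones. Between exFoxp3Th17 and Th17 it was not called (1.60-fold), so Clec2i, unlike Klrc1 and Clec2d, was within the threshold between the IL-17+ populations. In Treg it was 2.06-fold lower than in Th0, just inside the threshold. The second probe set gave 1.32-fold there, and equal medians of expressed probe sets a log2 ratio of -0.96.

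The receptor of Clr-g was measured too. Klrb1f, which encodes NKR-P1F, read 426.1 in exFoxp3Th17, 45.4 in Th17, 19.3 in Treg and 9.4 in Th0. It was 9.39-fold higher in exFoxp3Th17 than in Th17, 22.1-fold higher in exFoxp3Th17 than in Treg and at least 3.75-fold higher in Th17 than in Th0. Its other probe set read 99.1 in exFoxp3Th17 and was below the floor on the other 3 arrays (6.7 in Th17, 1.0 in Treg, 0.9 in Th0). Klrb1f was thus brightest on an array where its ligand gene Clec2i was dim. Klrb1b, which encodes the receptor of Clr-b, was below the floor on all 4 arrays by each of its 5 own probe sets. The probe set that Klrb1b shares with Klrb1c, the gene of the NK1.1 antigen, read 1.3, 5.9, 1.3 and 1.5 in exFoxp3Th17, Th17, Treg and Th0, all below the floor.

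Counted over the 7 measured members, exFoxp3Th17 against Th17 had 4 calls, 1 higher and 3 lower, while 9.67% of all genes were called (4.92% higher and 4.74% lower). In exFoxp3Th17 against Treg there were 3 calls, 1 higher and 2 lower, with 13.9% of all genes called (7.39% and 6.46%). In Th17 against Th0 there were 5 calls, 3 higher and 2 lower, with 9.86% of all genes called (5.38% and 4.48%). In Treg against Th0 there were 3 calls, 1 higher and 2 lower, with 6.83% of all genes called (3.62% and 3.22%). Each array enters 2 of the 4 comparisons. Since the members were proposed from these signals, nothing is read from how these counts stand to the shares of all genes. The same shares stand beside the counts of the other gene lists, which were also chosen with earlier results known. Nothing is read from those counts either.

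**Figure D2:**
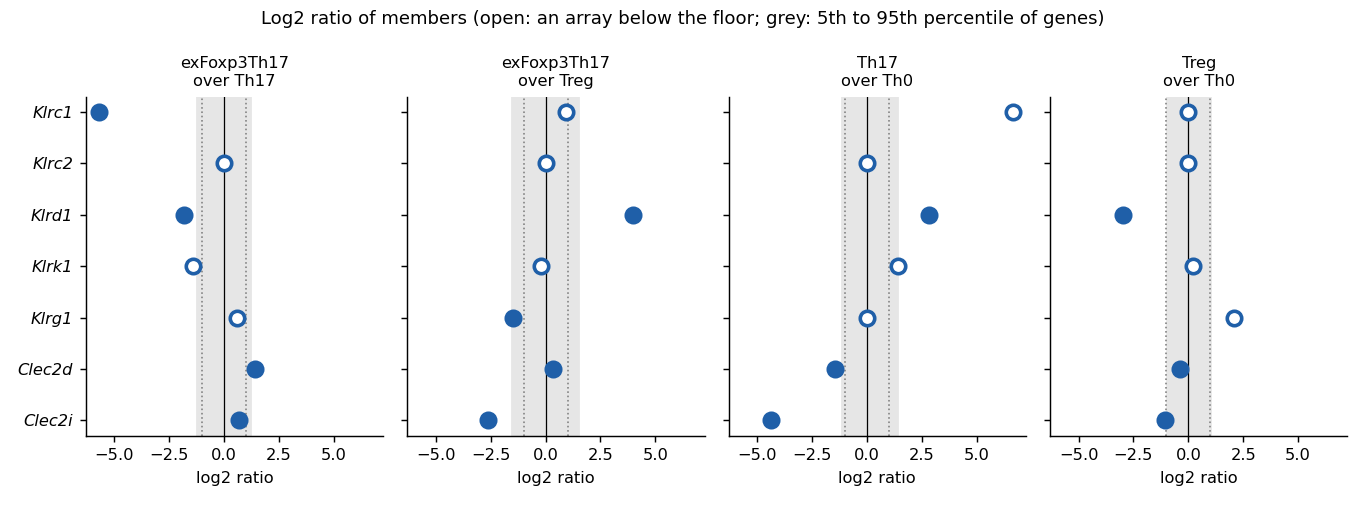
Log2 ratio of the 7 measured members in the 4 comparisons, with the first-named array over the second; filled circles have both arrays above the floor, open circles at least 1 below it, dotted lines mark 2-fold and the grey band the 5th to 95th percentile of genes above the floor. Klrc1 lies at -5.69 in exFoxp3Th17 over Th17 and at 6.63 in Th17 over Th0, and Klrd1 at 3.97 in exFoxp3Th17 over Treg.

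Most other members of the receptor family were unmeasured or below the floor. Of 22 further killer lectin receptor genes, 11 were measured and 3 were above the floor on some array: Klrb1f, Klre1 and Klra7, a Ly49 gene that reached 14.6 in Th17 only. Against Th17, exFoxp3Th17 had 1 gene of this list higher and 1 lower. The list had 1 higher and 0 lower in exFoxp3Th17 than in Treg, 2 higher and 0 lower in Th17 than in Th0, and 0 either way in Treg against Th0. Of 12 further Clec2 and neighbouring lectin genes, 10 were measured and 2 were above the floor, Cd69 and Clec2h, the second at 13.6 in Th17 only. Cd69 alone was called in that list.

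The adaptors of these receptors were present only in part. Hcst, which encodes the NKG2D adaptor DAP10, read 202.7 in exFoxp3Th17, 285.1 in Th17, 236.7 in Treg and 472.9 in Th0. It was not called in the 4 comparisons, but in Treg over Th0 its log2 ratio of -0.9985 lay at the threshold, and quantile normalization moved it to -1.01 and a call. Tyrobp, the gene of DAP12, on which NKG2C signals, was below the floor on all arrays (3.1, 0.4, 2.4 and 2.4), as was Fcer1g, the gene of the adaptor of NK1.1 (0.7, 8.6, 4.9 and 6.0).

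Of 14 measured adaptor and signalling genes, 0 were called in exFoxp3Th17 against Th17, 1 was higher and 2 lower in exFoxp3Th17 than in Treg, 0 were higher and 2 lower in Th17 than in Th0, and 0 were higher and 1 lower in Treg than in Th0. Over the 12 of them above the floor on an array, the median log2 ratios were 0.02, -0.16, -0.09 and -0.21. Over all 11841 genes above the floor on an array they were 0.03, 0.02, -0.02 and -0.01. Ptpn6, the phosphatase SHP-1 that inhibitory motifs of NKG2A recruit, was 2.51-fold lower in Th17 than in Th0 (373.1 against 937.4), though its other probe set was at a log2 ratio of -0.49. Inpp5d, the lipid phosphatase SHIP-1, was 2.26-fold lower in exFoxp3Th17 than in Treg (107.5 against 243.2). Sh2d1a, the adaptor SAP, was 3.83-fold higher in exFoxp3Th17 than in Treg (1603 against 418.0) and 2.67-fold lower in Treg than in Th0 (418.0 against 1117). Syk was at least 2.92-fold lower in exFoxp3Th17 than in Treg (1.4 against 35.3), and Cd247, the zeta chain, was 3.03-fold lower in Th17 than in Th0 (466.8 against 1415), with its other probe sets above the floor short of 2-fold.

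On the ligand side, 8 of 16 genes were measured. Class I genes were bright and even: H2-K1 read 2914 in exFoxp3Th17, 3079 in Th17, 3704 in Treg and 3470 in Th0, and B2m, the shared light chain, 4823, 4426, 5152 and 5091. The Qa-1 gene H2-T23 had no probe set to itself and was not analysed here. Among cadherins that bind KLRG1, Cdh1 (E-cadherin) was above the floor in Treg only, at 0.5 in exFoxp3Th17, 1.0 in Th17, 41.3 in Treg and 4.5 in Th0. Cdh1 thus had its highest signal on the array where Klrg1 had its own. It was the list's only call: at least 3.41-fold lower in exFoxp3Th17 than in Treg and at least 3.41-fold higher in Treg than in Th0. Over the 6 ligand genes above the floor on an array, the median log2 ratios were -0.37 in exFoxp3Th17 over Treg, -0.19 in Th17 over Th0 and 0.06 in Treg over Th0.

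Lineage and effector transcription factors of T and NK cells differed between the arrays, in both directions except in Treg against Th0. Of 12 measured among 13, exFoxp3Th17 had 2 higher and 2 lower against Th17, and 1 higher and 4 lower against Treg. The counts were 4 higher and 3 lower in Th17 than in Th0, and 5 higher and 0 lower in Treg than in Th0. In the same order, 4.92%, 7.39%, 5.38% and 3.62% of all genes were higher, and 4.74%, 6.46%, 4.48% and 3.22% lower. The list was chosen with earlier results known, so nothing is read from these counts. Over the 11 above the floor on an array, the median log2 ratio was -0.70 in exFoxp3Th17 over Treg, 0.87 in Treg over Th0 and 0.00 in the other 2 comparisons. Over all genes above the floor on an array it was 0.02 in exFoxp3Th17 over Treg and -0.01 in Treg over Th0. Tbx21, the gene of T-bet, was above the floor only in Treg, at 86.8, against 3.0 in exFoxp3Th17, 0.5 in Th17 and 0.7 in Th0. Nfil3, which NK cell development needs, read 14.3 in exFoxp3Th17, 217.3 in Th17, 329.1 in Treg and 22.1 in Th0, so that it was high in Th17 and in Treg. Against Th17, exFoxp3Th17 was higher in Gata3 (135.0 against 27.0, a log2 ratio of 2.32), which directs Th2 differentiation, and 5.63-fold higher in Tox (161.3 against 28.7). Among the largest ratios of the list were those of Maf, 178-fold higher in Th17 than in Th0, and of Prdm1, at least 34.9-fold lower in exFoxp3Th17 than in Treg, and Gata3 was 16.8-fold lower in Th17 than in Th0. Runx3 was 2.22-fold lower in exFoxp3Th17 than in Th17 (373.4 against 828.8) and 2.50-fold higher in Th17 than in Th0 (331.8 in Th0).

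**Figure D3:**
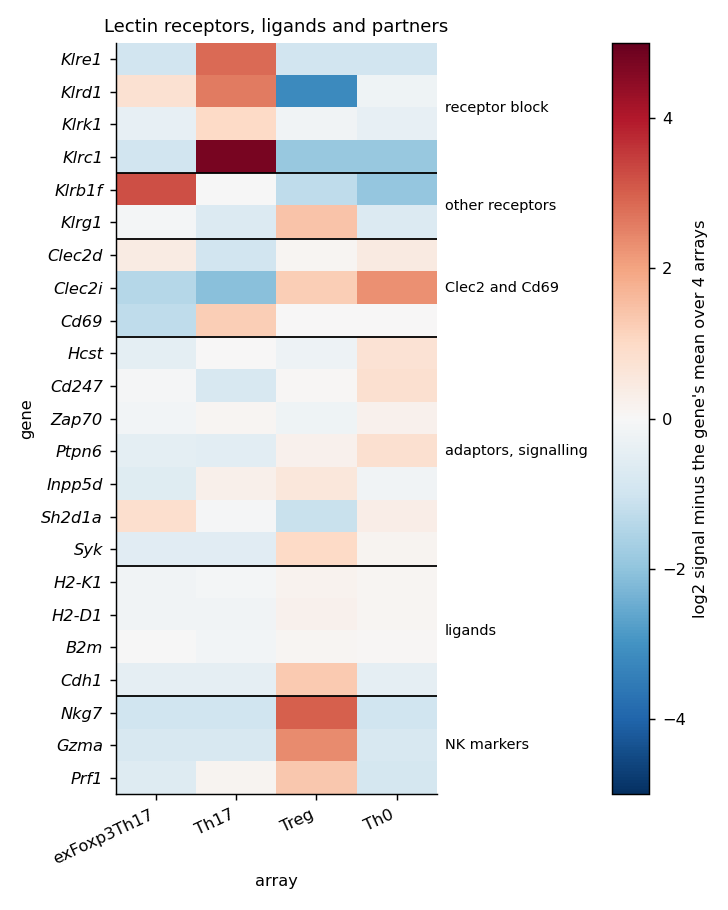
Log2 signal, floored at 12.1 and centred on each gene's mean over the 4 arrays, for the members above the floor on an array and for chosen partner genes, with exFoxp3Th17, Th17, Treg and Th0 from left to right; red is above and blue below the gene's own mean. The first 4 genes are reddest in Th17, Klrb1f in exFoxp3Th17, and Klrg1, Cdh1, Nkg7, Gzma and Prf1 in Treg.

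Likeness of pattern was measured as the root mean square difference between floored log2 signals centred on each gene's mean over the 4 arrays, among 8714 genes that reached 4 times the floor (48.4). Closest to Klrc1 were Gcnt2, a glycosyltransferase gene (0.35 log2 units), Il9 (0.48) and Il24 (0.51). All 3 were far higher in Th17 than elsewhere, with Gcnt2 at 23.6 in exFoxp3Th17, 685.4 in Th17, 5.4 in Treg and 5.5 in Th0. Gcnt2 and Il24 were, like Klrc1, below the floor in Treg and Th0, so part of that likeness is the floor itself. For Klrd1 the nearest were Mgll, the monoacylglycerol lipase gene (0.93), the myosin gene Myo10 (0.94) and Mctp2 (1.01). Closest to Clec2i were Sytl2 (0.28), Rnf144a (0.38) and the interferon-inducible Rtp4 (0.39). Sytl2 read 17.6 in exFoxp3Th17, 16.1 in Th17, 163.6 in Treg and 375.0 in Th0.

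For Clec2d the nearest genes were Adamts10 (0.073), Mettl7a1 (0.080) and Fbxo31 (0.086), the last with another probe set that did not share the pattern. For Klrg1 they were Cd79b (0.050), Pon3 (0.070) and Prg4 (0.14). Cd79b and Pon3 were, like Klrg1, below the floor in Th17 and Th0, so part of their likeness is the floor itself. With 4 arrays, likeness of this kind is a description. The distance is not scaled to the size of a gene's differences, so distances of different members are not compared.

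**Figure D4:**
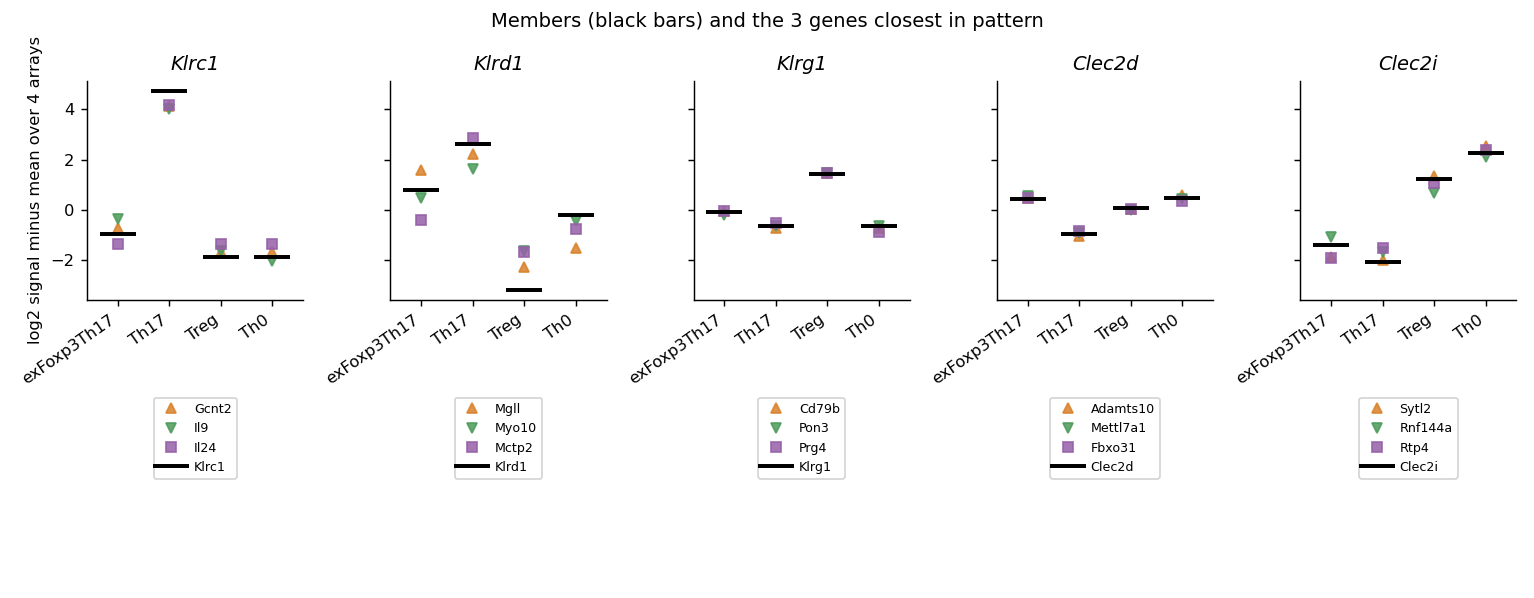
Floored log2 signal centred on each gene's mean over the 4 arrays, for 5 members (black bars) and the 3 genes closest to each (symbols), with exFoxp3Th17, Th17, Treg and Th0 from left to right. The symbols lie within 0.14 log2 units of the bar by root mean square for Klrg1 and Clec2d, and 0.93 or more away for Klrd1. These distances are not scaled to the size of each gene's differences.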

How the data were processed

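The authors deposited signal intensities on a linear scale, in 1 table of 45101 probe sets by 4 arrays. The submitters' processing notes name MAS5, without a version. Per the labels, 1 µg of total RNA was labelled with biotin. The trimmed mean of each array was 100.0, so the authors' scaling was kept.

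Gene symbols come from the platform's annotation. Of the probe sets that are not controls, 34945 have 1 gene symbol (34741 found in the RefSeq table and updated through the gene identifier), 932 have several, which named no gene, and 9160 are unnamed here. A gene is its own probe set with the highest mean floored log2 value. The floor is 12.1, the threshold 2-fold, and no test between single arrays is possible; the number of arrays limits the precision. The calling rule was also run on simulated ratios. No outcome of that run is given here, so nothing is read from it about the members' calls. This holds above all for calls against values below the floor, as in Klrk1, Klrg1 and Klrc1. Computation used Python 3.11.15, numpy 2.4.6 and pandas 2.3.3.

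The members, the 11 gene lists and the motifs were chosen with earlier results of these data known. The naming rule took all members, up to 4 called genes of each list in each comparison, Foxp3, Il17a and the 3 nearest genes of each member at 4 times the floor; it covers more genes than are named. Xist, Eif2s3y, genes given as below the floor or uncalled, and Klra7, Clec2h, H2-K1, B2m, Hcst, Cd8b1, Cd8a, Csf1r, Fcgr3, Cd160 and Itga2 were named after their values were seen. Alternatives were another floor, a pseudocount, other scalings, other probe sets and a 3-fold threshold.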

Additional observations from a re-analysis of the deposited data

Results flagged for a closer look

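Clec2d and Klrk1 each had log2 ratios of opposite sign in the 2 origins when the Th17-cultured population was set against the other population of the same origin. Clec2d had a log2 ratio of 0.35 in exFoxp3Th17 over Treg, from Foxp3+ cells, and of -1.44 in Th17 over Th0, from naive cells. Klrk1 had -0.22 in exFoxp3Th17 over Treg and 1.41 in Th17 over Th0, with an array below the floor in each. In both genes the ratio between exFoxp3Th17 and Treg was within 2-fold and smaller than the probe-set robust SD of 0.44 there. When the floor was doubled, the Klrk1 ratio between these arrays was 0.0. The sign in this comparison is therefore not read as a direction. With 1 array per population the difference was not tested, and the other arm of the contrast was an IL-2 culture for one origin and a Th0 culture for the other.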

How the results depend on the processing

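Each member ratio was recomputed under each of 8 alternatives, which gave 224 values. Of these, 207 kept their side of the threshold, 12 fell below it and 5 passed it. The 207 include values that could not move. Genes with 1 probe set return the same ratio under the probe-set alternatives, and Klrc2 lay below even 0.5 times the floor on every array. Among ratios that were called at first, 0 reversed. Direction was not checked for uncalled ratios. The number of members called went to 5, against 3, at 0.5 times the floor in exFoxp3Th17 over Treg, where Klrc1 (log2 ratio 1.74) and Klrk1 (-1.22) passed. At a 3-fold threshold it went to 2, against 4, in exFoxp3Th17 over Th17 and to 3, against 5, in Th17 over Th0, since Clec2d and Klrk1 lie between 2-fold and 3-fold. The calls of Klrc1 and Klrd1 held under all 8 alternatives. For Klrd1 several of these could not change the ratio. It has 1 probe set, and all its signals lie above the doubled floor, so another floor or probe set returned the same value. Clec2i in Treg over Th0 lost its call under 5 of the 8, among them its second probe set (-0.40), and Klrg1 in exFoxp3Th17 over Th17 gained one at 0.5 times the floor (1.59) and with the floor as a pseudocount (1.19). Over all genes, the 3-fold threshold left 658, 1104, 762 and 473 calls in exFoxp3Th17 over Th17, exFoxp3Th17 over Treg, Th17 over Th0 and Treg over Th0, against 1759, 2520, 1794 and 1243. At 0.5 times the floor there were 1885 calls in Treg over Th0. No paired analysis was possible because each population has 1 array. Low signal limits Klrk1, Klrg1 and Klrc1: each was below the floor on 2 of the 4 arrays, and ratios against those arrays are bounds.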
